A study of Mus musculus with 12 samples.

Results

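The cardiac calcium handling genes are 8 genes whose products move calcium in and out of the heart muscle cell at each beat: Atp2a2, Pln, Sln, Ryr2, Casq2, Cacna1c, Slc8a1 and Hrc. Their probes were found by gene name, older synonyms included, among the probes that are not controls. The 8 genes carried 19 probes, out of 41174 probes with 27666 names on the array. The study compared hearts and kidneys of mice lacking mENT1, the equilibrative nucleoside transporter encoded by Slc29a1, with those of wild type mice, and the labels give FVB/N as the background of every animal. The 4 groups, each of 3 arrays lettered a, b and c, were mENT1 knockout heart, wild type heart, mENT1 knockout kidney and wild type kidney. The submitters name 3 knockout and 3 wild type mice. The labels give no treatment, age or sex, and do not describe how the gene was disrupted. Each RNA sample was hybridised with a single dye (Cy3) to 1 Agilent mouse array.

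In a heart muscle cell, calcium enters through the L-type channel and opens the ryanodine receptor of the sarcoplasmic reticulum, the internal calcium store, and the released calcium starts contraction. Relaxation follows when the pump SERCA2 returns calcium to the store and the sodium/calcium exchanger carries the rest out of the cell. Phospholamban and sarcolipin are small membrane proteins that restrain the pump, and calsequestrin and the histidine-rich calcium binding protein hold calcium inside the store.

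Values are log2 intensities relative to each array's own 75th percentile, so 0 is the level of that percentile, and differences are on the same log2 scale. Intensities at that percentile ranged from 451.2 to 878.0, with 157 to 331 saturated spots on an array. Tests in a tissue took the probes that all 3 arrays of 1 or both genotypes read well above background, and a probe was called when its adjusted p in limma was under 0.05. The arrays' number limits the precision. Every direction rests on the labels of the scanner files. In the authors' deposited table each column follows the array of the other genotype, so its labels would reverse each knockout effect. Slc29a1 was checked first: it had 1.38, 0.59 and 1.53 in knockout hearts and 3.15, 3.23 and 3.36 in wild type hearts, a difference of -2.08 ± 0.26 (SE, limma adjusted p = 0.0377). In kidneys the difference was -2.85 ± 0.17 (SE, limma adjusted p = 0.00717).

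Some arrays stood apart. Xist, which female cells make from their inactive X chromosome, had 1.71 and 1.69 in knockout hearts a and b and 1.21 in knockout kidney a, and lay between -8.83 and -7.97 on the other 9 arrays. Signal in 2 of 3 knockout hearts but 1 of 3 knockout kidneys does not match hearts and kidneys of the same 3 knockout mice. The 8 markers of thymus and lymphocytes were all well above background in knockout hearts a and b, with medians of 3.34 and 4.37, against medians of -3.91 in knockout heart c and -4.99 to -4.73 in the 3 wild type hearts. The 5 lung and airway markers had a median of 4.44 in knockout heart a and -7.73 to -3.91 in the other 5 hearts. The 7 liver markers on the array had medians of -2.21 to -1.74 in knockout hearts and -7.11 to -5.00 in wild type hearts, and the 7 skeletal muscle markers had 1.93 in wild type heart a and -2.46 to -0.05 in the other 5 hearts. In bulk tissue, fewer cells of a type and less RNA per cell cannot be told apart. The 3 knockout hearts shared 1 slide and the 3 wild type hearts another, so an effect of slide and one of genotype cannot be told apart in hearts.

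The 8 genes each had at least 1 probe tested in heart, and 17 of the 19 probes were tested there. The other 2 probes, A_52_P1156808 of Atp2a2 and A_52_P244931 of Slc8a1, were not well above background on any of the 12 arrays. For each gene the brightest probe in hearts is called its main probe below. No spot of the 19 probes carried an outlier mark.

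The 6 probe sequences below are shown because the results turn on which stretch of RNA a probe reads. The first 3 span 2472, 2822 and 258 bases of the genome although each is 60 bases long, so their match to the genome is split. They are the Ryr2 probe A_51_P391655 at chr13:11486533-11489004 (minus strand), the Slc8a1 probe A_51_P277373 at chr17:79683336-79686157 (minus strand) and the Hrc probe A_51_P267751 at chr7:41513625-41513882 (plus strand). The next is the Atp2a2 probe with no saturated spot, A_52_P168097 at chr5:121694873-121694932 (minus strand). The last 2 are Slc8a1 probes that differed between the tissues in opposite directions, A_52_P562704 at chr17:79705536-79705595 and A_52_P313284 at chr17:79742183-79742242 (both minus strand). Positions are in build mm7 per the file headers, and sequences are the probe letters in the files, 5′ to 3′.
Ryr2 A_51_P391655: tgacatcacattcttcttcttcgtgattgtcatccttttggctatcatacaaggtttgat
Slc8a1 A_51_P277373: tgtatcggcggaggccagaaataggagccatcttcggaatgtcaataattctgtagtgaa
Hrc A_51_P267751: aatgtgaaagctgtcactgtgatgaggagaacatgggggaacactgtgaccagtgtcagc
Atp2a2 A_52_P168097: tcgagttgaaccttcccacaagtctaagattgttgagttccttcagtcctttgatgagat
Slc8a1 A_52_P562704: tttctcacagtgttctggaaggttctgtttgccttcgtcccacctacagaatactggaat
Slc8a1 A_52_P313284: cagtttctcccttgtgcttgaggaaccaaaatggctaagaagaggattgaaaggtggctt

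Heart was set against kidney in wild type mice to see how far each gene marks the heart. The members were chosen as heart genes, and a main probe is the brightest in hearts. The direction is thus a check of the list and not a finding. Only 10 of the 17 probes were tested in kidney, and the others entered through the hearts. At the main probe all 8 genes were called higher in heart, with a median log2 difference of 9.13. Over all probes, 14 of the 17 tested were called higher in heart and 2 lower, where 56.5% of all 27800 probes tested over the 12 arrays were called, 29.7% higher and 26.8% lower. Hearts and kidneys did not overlap at any of the 17, with 15 above and 2 below, where 68.5% of all probes did not overlap and 32.5% lay wholly below. The 2 restrainers of the pump and the 2 store proteins showed the widest gaps. Pln, phospholamban, had 6.09, 6.09 and 6.41 in wild type hearts and -5.12, -5.17 and -4.67 in wild type kidneys, a difference of 11.18 ± 0.30 (SE, limma adjusted p = 3.86e-10). Hrc differed by 11.30 ± 0.24 (SE, limma adjusted p = 8.32e-11) and Casq2, cardiac calsequestrin, by 10.72 ± 0.35 (SE, limma adjusted p = 1.49e-09).

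Sln, sarcolipin, was not well above background on any kidney array, so its fold is a lower bound. Its main probe averaged 6.41 ± 0.36 in wild type hearts and -8.56 ± 0.37 in wild type kidneys (SD, n = 3 each), and the level in heart was at least 8110-fold higher. Such a bound sets the mean in heart against, on each kidney array, the higher of the dimmest signal that is well above background and the probe's own value. Ryr2, the ryanodine receptor of the heart, was at least 44.5-fold higher in wild type heart at its main probe, with means of -1.06 in wild type hearts and -7.92 in wild type kidneys. Cacna1c, the pore-forming subunit of the L-type channel, differed by 7.55 ± 0.35 (SE, limma adjusted p = 2.52e-08), although its main probe was well above background on only 1 of the 3 wild type kidney arrays. Atp2a2 was saturated at its main probe on 4 of the 6 heart arrays, so its level there is a minimum, and the measured difference was 5.52 ± 0.32 (SE, limma adjusted p = 1.27e-07).

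Probes of 1 gene disagreed for the pump and for the exchanger. Atp2a2 encodes SERCA2, and splicing at its 3′ end gives a muscle form and a form present in most tissues; the files do not say which form a probe reads. A_52_P168097 was higher in wild type heart by 5.24 ± 0.35 (SE, limma adjusted p = 3.86e-07), and A_51_P451075 by the 5.52 above. A_52_P569001, at chr5:121691063-121691122 between those probes in the genome, was lower in heart: it had 0.64, 0.65 and 0.996 in wild type hearts and 1.46, 1.63 and 1.38 in wild type kidneys. The difference was -0.73 ± 0.19 (SE, limma adjusted p = 0.00603), and no heart reached a kidney. At the same probe knockout heart lay below knockout kidney by -0.70 ± 0.19 (SE, limma adjusted p = 0.00758).

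Slc8a1 encodes NCX1, the sodium/calcium exchanger, whose messages in heart and kidney carry different mutually exclusive exons. A_51_P277373 and A_52_P562704 were higher in wild type heart, by 2.35 ± 0.36 (SE, limma adjusted p = 0.000199) and 2.57 ± 0.38 (SE, limma adjusted p = 0.000165). A_52_P313284, which the array's annotation takes from a partial message named isoform NaCa3, had -5.37, -5.33 and -5.96 in wild type hearts and -4.40, -5.14 and -4.48 in wild type kidneys. It was lower in heart by -0.88 ± 0.31 (SE, limma adjusted p = 0.0305). That call was lost in 5 alternatives, with adjusted p = 0.0972 with the array letter as a block, 0.0747 with slide as a random block, 0.117 without wild type heart c, 0.102 without wild type kidney a and 0.0887 without wild type kidney c. Between knockout heart and knockout kidney the same probe differed by -1.51 ± 0.31 (SE, limma adjusted p = 0.00154). In that comparison 14 of the 17 probes were called higher in knockout heart and 2 lower, where 58.6% of all probes were called, 30.8% higher and 27.9% lower. Another Slc8a1 probe, A_52_P231461, did not pass the test, with a difference of 0.60 (95% interval -0.70 to 1.89).

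**Figure D1:**
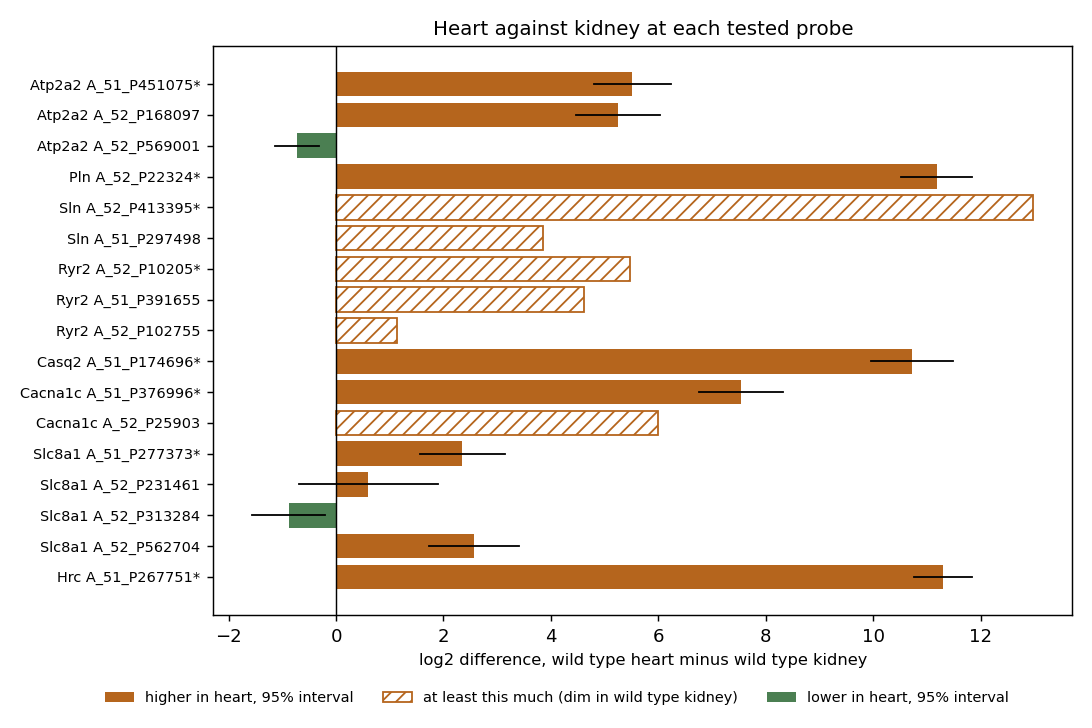
Log2 difference between wild type heart and wild type kidney (horizontal axis) at each of the 17 tested probes (vertical axis), with 95% intervals from limma; hatched bars are lower bounds for probes not well above background in wild type kidney, and an asterisk marks the main probe. The 8 main probes all lie to the right of 0, and 1 probe each of Atp2a2 and Slc8a1 lies to the left.

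The comparison of knockout with wild type hearts asks whether the calcium handling genes change in the heart without mENT1. No probe of the 8 genes passed the test: 0 of 17 were called in limma, where 0.47% of all 26175 probes tested in heart were called (0.405% higher and 0.0649% lower), and 3 of the 17 had an unadjusted p under 0.05 (17.6%, against 16.4% of all probes). The fitted difference was below 0 at all 17 probes, but not under every setting. Over the 17 it had a median of -0.43, a range of -1.46 to -0.08 and limma adjusted p-values of 0.279 to 0.841. Over all probes tested 59.2% were below 0 and the median was -0.08. Arrays without Xist signal leave knockout heart c as the only knockout heart, and 9 of 17 were then below 0, against 51% of all probes. With arrays scaled on unsaturated heart muscle probes 3 of 17 were below 0, against 6.49% of all probes. By setting, the median was -0.03 in arrays without Xist signal, against -0.006 over all probes. When arrays were scaled on the 8 heart muscle markers it was -0.27 with 16 of 17 below 0, against 39.5% of all probes. On each heart array 5 or 6 of those 8 markers were saturated, so that scaling cannot adjust for heart muscle content. When arrays were scaled on 4 heart muscle probes with no saturated spot the member median was 0.16. The last scaling was chosen after seeing the data, and it moved the median of all probes to 0.51, against 0.09 with the 8 markers. Its 4 probes were themselves lower in knockout hearts, by -1.17 (Tnnt2), -0.65 (Myl3), -0.53 (Ttn) and -0.495 (Actn2), none of them called in limma. The Tnnt2 probe was dim, at -5.35 to -3.62 in hearts. Scaling on probes that are lower raises the members, so their sign there depends on that choice. The knockout and wild type hearts overlapped at each of the 17 probes, where 22.8% of all probes did not overlap and 14% lay wholly below.

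The pump and its restrainers came first. At Atp2a2, the main probe had 5.99, 6.18 and 6.36 in knockout hearts and 6.29, 6.18 and 6.72 in wild type hearts, but 4 of the 6 spots were saturated (knockout hearts a and c, wild type hearts b and c). The unsaturated probe A_52_P168097 had 5.28, 5.08 and 5.66 in knockout hearts and 5.35, 5.72 and 6.15 in wild type hearts. Knockout hearts a and b lay below every wild type heart there and knockout heart c lay between wild type hearts a and b. The difference was -0.40 (95% interval -0.999 to 0.21; limma adjusted p = 0.422).

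For Pln the levels were 5.48, 5.57 and 6.17 in knockout hearts and 6.09, 6.09 and 6.41 in wild type hearts. Knockout hearts a and b were the lowest of the 6, and knockout heart c exceeded wild type hearts a and b. Its difference of -0.46 (95% interval -0.99 to 0.07) had a limma adjusted p of 0.333.

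Sln had 5.86, 5.69 and 6.38 in knockout hearts and 6.34, 6.09 and 6.80 in wild type hearts at its main probe, whose spot was saturated in wild type heart c. The difference was -0.43 (95% interval -1.05 to 0.18; limma adjusted p = 0.395). Its dimmer probe A_51_P297498 had -3.79, -4.41 and -3.10 in knockout hearts and -2.49, -3.28 and -2.42 in wild type hearts, a difference of -1.04 (95% interval -1.96 to -0.12) with an unadjusted p of 0.0324 and a limma adjusted p of 0.283. Sarcolipin is mainly an atrial protein in the mouse heart. All 6 atrial markers were well above background in each heart, with medians of 3.997, 3.69 and 4.19 in knockout hearts and 4.16, 3.998 and 4.70 in wild type hearts. The array with the lowest atrial median, knockout heart b, had the lowest Sln at both probes, and that with the highest, wild type heart c, had the highest Sln. This order was not particular to Sln: knockout heart b was lowest at 12 of the 17 member probes and wild type heart c highest at 14. The part of the atrial share in the Sln levels was not tested.

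The release channel and the store proteins followed. Ryr2 at its main probe had -1.40, -1.73 and -0.72 in knockout hearts and -1.38, -1.10 and -0.70 in wild type hearts, a difference of -0.23 (95% interval -0.95 to 0.50; limma adjusted p = 0.687). The probe A_51_P391655 had -2.70, -3.17 and -2.26 in knockout hearts and -2.28, -1.93 and -1.65 in wild type hearts. Its difference of -0.76 (95% interval -1.42 to -0.10) had an unadjusted p of 0.0306 and a limma adjusted p of 0.281. Knockout hearts a and b lay below the wild type hearts at both probes, while knockout heart c lay among them.

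Another Ryr2 probe, A_52_P102755, had the lowest difference of the 17, -1.46 (95% interval -2.72 to -0.21; limma adjusted p = 0.279), and was the dimmest of them in knockout hearts. It had -7.35, -7.66 and -5.72 in knockout hearts, well above background in 1 of the 3, and -4.99, -5.89 and -5.45 in wild type hearts. It lies on the plus strand at chr13:12069288-12069347, opposite to the other 2 Ryr2 probes, so whether it reads the Ryr2 message is not given by the files. It passed the filter through the wild type hearts. Without knockout heart c it was called (limma adjusted p = 0.014), the only member probe called under any alternative in heart or kidney, in a fit that called 11% of all probes. Neither knockout heart left was well above background there, so the level is a bound: at least 2.85-fold lower in knockout hearts a and b, with measured means of -7.50 in those and -5.45 in wild type hearts.

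Casq2 had 4.26, 3.96 and 5.03 in knockout hearts and 4.58, 4.84 and 5.32 in wild type hearts. Knockout hearts a and b were the lowest of the 6 and knockout heart c was second highest. The difference was -0.50 (95% interval -1.27 to 0.28; limma adjusted p = 0.427). Hrc had 6.18, 6.17 and 6.82 in knockout hearts and 6.46, 6.51 and 7.12 in wild type hearts, in the same order, with a difference of -0.31 (95% interval -0.94 to 0.33; limma adjusted p = 0.534). No Hrc spot was marked saturated, though up to 29.2% of its pixels were.

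The genes of calcium entry and exit at the cell surface again had knockout hearts a and b lowest at their main probes. Cacna1c had -0.08, 0.19 and 0.45 in knockout hearts and 0.24, 0.60 and 1.32 in wild type hearts, a difference of -0.53 (95% interval -1.25 to 0.18; limma adjusted p = 0.379). Its second probe gave -0.44 (95% interval -1.14 to 0.27). Slc8a1 at its main probe had -0.47, -1.01 and 0.11 in knockout hearts and -0.46, -0.14 and 0.34 in wild type hearts, a difference of -0.37 (95% interval -1.16 to 0.43; limma adjusted p = 0.552). The other 3 tested Slc8a1 probes had differences of -0.49 to -0.19, each with an interval that included 0.

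**Figure D2:**
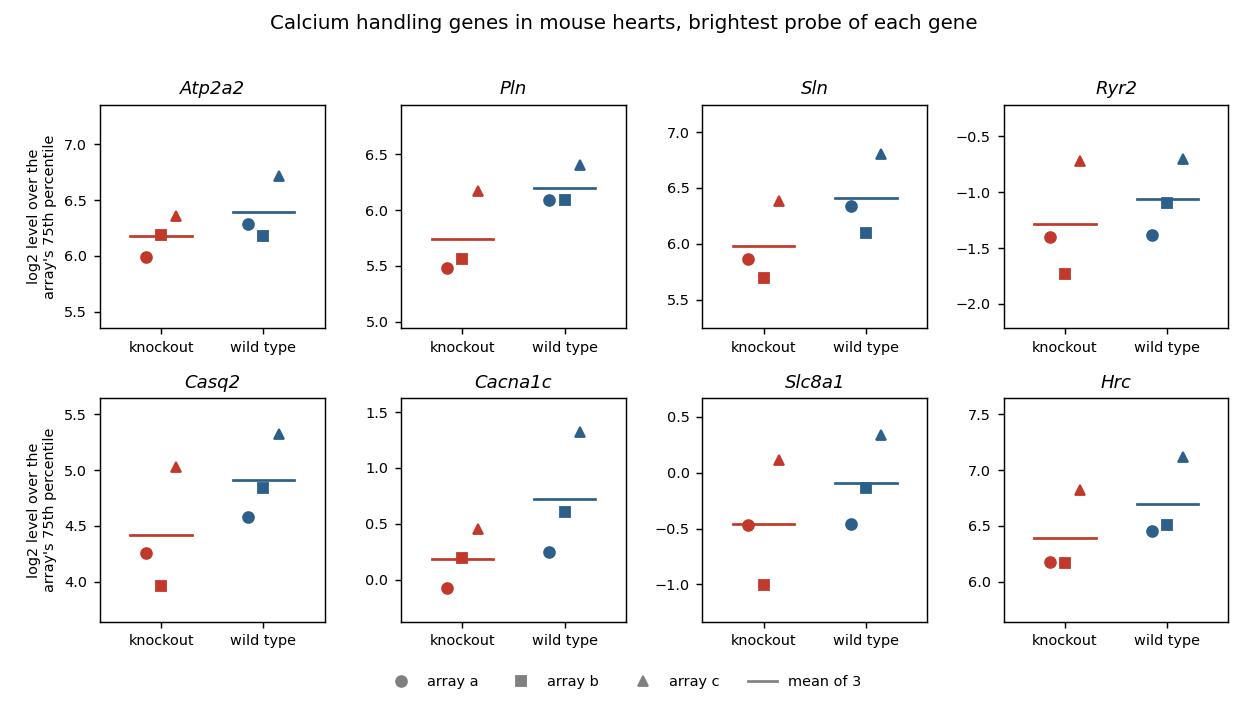
Log2 level over the array's 75th percentile (vertical axis, spanning 2 log2 units in every panel) at the main probe of each gene in knockout and wild type hearts; symbols mark arrays a, b and c and lines the mean of 3. Knockout arrays a and b sit lowest or near lowest in most panels, knockout array c lies within the wild type range in 8 of 8 panels, and Atp2a2 spots were saturated in 4 of 6 hearts.

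**Figure D3:**
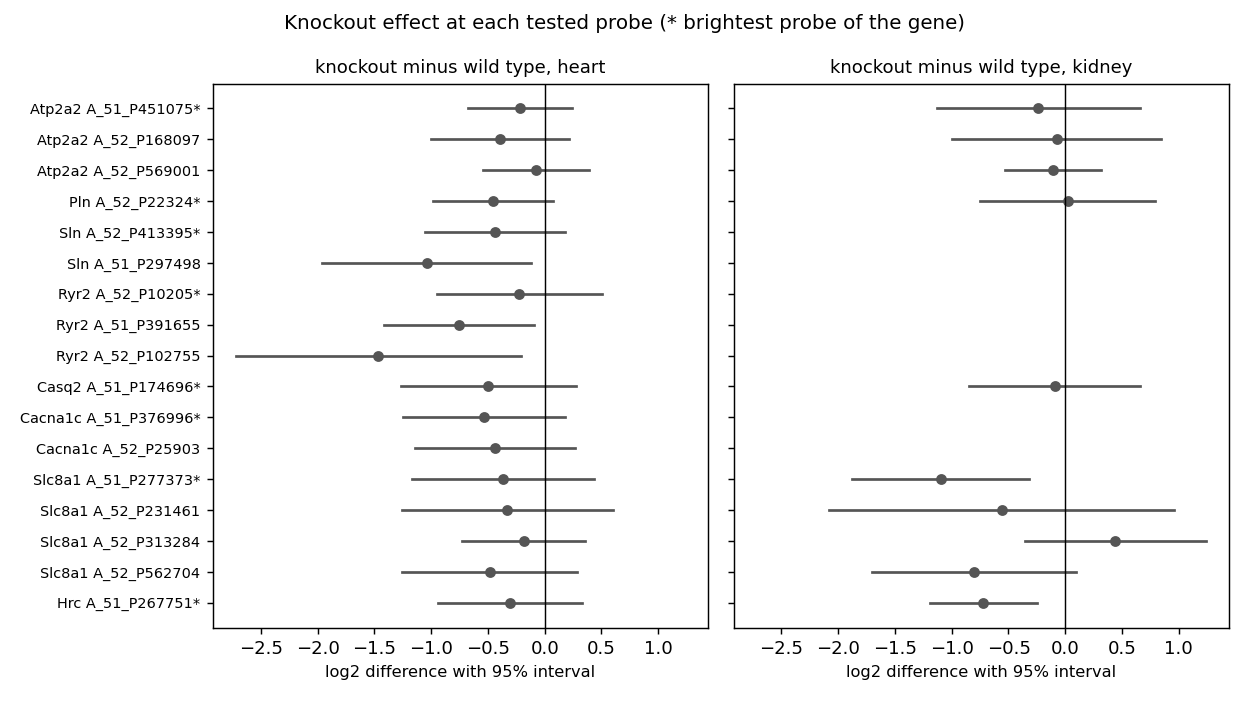
Knockout minus wild type log2 difference with its 95% interval from limma (horizontal axis) at each tested probe (vertical axis), for heart on the left and kidney on the right; an asterisk marks the main probe. All 17 heart points lie below 0 on the 75th percentile scaling, 3 with an interval that excludes 0 and 0 called after adjustment. In arrays without Xist signal, where knockout heart c is the only knockout heart, 9 of 17 were below 0, against 51% of all probes. With arrays scaled on unsaturated heart muscle probes 3 of 17 were, against 6.49% of all probes.

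The member probes moved together from heart to heart, and the arrays within a genotype differed as much as the genotypes. Knockout heart a lay below every wild type heart at 15 of the 17 probes and knockout heart b at 15, while knockout heart c did so at 0. The median difference from the wild type mean was -0.55 in knockout heart a, -0.68 in knockout heart b and -0.03 in knockout heart c. Over all probes tested these medians were -0.12, -0.14 and -0.01. Wild type heart c was the highest of the 6 hearts at 14 of the 17 probes, and without it the median difference was -0.23. These counts by single heart were not made over all probes tested, so whether they are unusual is not known. With 1 heart left out at a time, the main-probe difference ranged from -0.51 to -0.001 for Ryr2 (nearest 0 without knockout heart b), from -0.65 to -0.09 for Slc8a1 (likewise) and from -0.33 to -0.054 for Atp2a2 (nearest 0 without wild type heart c). The ranges were -0.67 to -0.33 for Pln, -0.64 to -0.24 for Sln, -0.80 to -0.27 for Casq2, -0.77 to -0.23 for Cacna1c and -0.52 to -0.093 for Hrc. Over the 6 hearts the 28 pairs of main probes had Pearson correlations of 0.69 to 0.98, with a median of 0.89, as a description over arrays that share their scaling.

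Knockout hearts a and b are the 2 hearts with the thymus and lymphocyte signal and the Xist signal. Markers of heart muscle itself were read beside the members. At their brightest probe, 5 or 6 of the 8 heart muscle markers were saturated on each heart array. Their summed intensity, not scaled, was 430757 to 457780 in knockout hearts and 432758 to 459784 in wild type hearts. Saturated spots make up most of that sum, so it cannot show whether heart muscle content differed. Actn2, alpha-actinin of the sarcomere, had no saturated spot and had 5.39, 5.43 and 6.04 in knockout hearts and 5.67, 5.998 and 6.68 in wild type hearts. Ttn, titin, had 2.84, 2.45 and 3.48 in knockout hearts and 3.00, 3.43 and 3.92 in wild type hearts. The 4 ventricle markers had medians of 3.55, 3.80 and 4.22 in knockout hearts and 4.30, 4.23 and 4.78 in wild type hearts. Actn2, titin and the ventricle median thus had knockout hearts a and b lowest and wild type heart c highest, as most member probes did. The median of the 8 heart muscle markers was 6.62 in knockout heart b and 6.35 in wild type heart b. That median rests on saturated spots, so it cannot rank the hearts. The part of other tissue, sex or heart muscle share in the member differences was not tested.

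**Figure D4:**
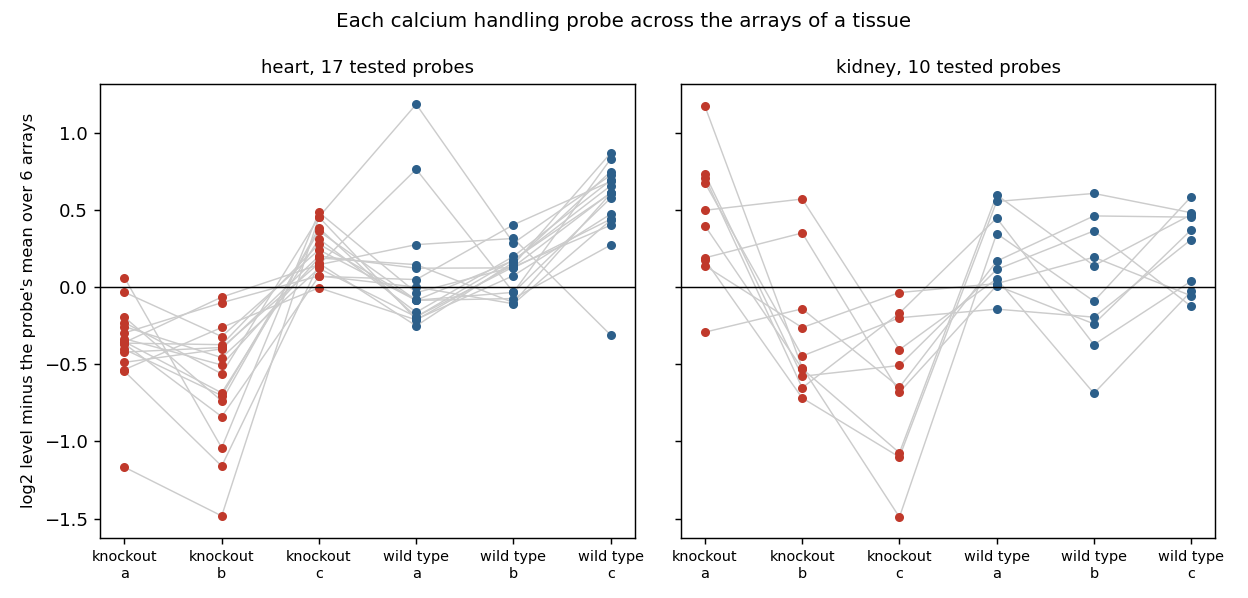
Log2 level minus the probe's mean over the 6 arrays of a tissue (vertical axis) on each array (horizontal axis), for the 17 probes tested in heart and the 10 tested in kidney; each grey line joins 1 probe. In heart, knockout arrays a and b lie mostly below 0 and wild type array c mostly above; in kidney, knockout array a lies mostly above 0 and knockout arrays b and c mostly below.

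In kidney, where these genes are dim, 10 probes of 5 genes were tested: Atp2a2, Pln, Casq2, Slc8a1 and Hrc. No probe was called, where 0.0969% of all 25804 probes tested in kidney were called (0.0349% higher and 0.062% lower), and 2 of the 10 had an unadjusted p under 0.05 in limma, as 13.3% of all probes did. The differences were below 0 at 8 of 10 probes with a median of -0.17, against 53.4% and a median of -0.03 over all probes. Hrc had -5.26, -5.11 and -5.62 in knockout kidneys and -4.80, -4.51 and -4.52 in wild type kidneys, a difference of -0.72 (95% interval -1.19 to -0.25; limma adjusted p = 0.223). Slc8a1 at its main probe had -2.80, -3.70 and -4.08 in knockout kidneys and -2.43, -2.37 and -2.50 in wild type kidneys, a difference of -1.10 (95% interval -1.87 to -0.32; limma adjusted p = 0.247). At these 2 probes all knockout kidneys lay below all wild type kidneys, which 11.1% of all probes tested in kidney did, while 21.3% did not overlap in either direction.

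The Slc8a1 probes did not agree in kidney. A_52_P562704 differed by -0.80 (95% interval -1.70 to 0.09), and A_52_P313284, the probe lower in heart than in kidney, by 0.44 (95% interval -0.36 to 1.24). Atp2a2 differed by -0.24 (95% interval -1.13 to 0.66) at its main probe and by -0.11 (95% interval -0.53 to 0.32) at A_52_P569001. Pln and Casq2 differed by 0.02 (95% interval -0.75 to 0.79) and -0.09 (95% interval -0.85 to 0.66). Knockout kidney a, the array with Xist signal, differed from the wild type mean by a median of 0.38 over the 10 probes, against -0.60 in knockout kidney b and -0.68 in knockout kidney c. That array was also the only array on slide 1 and had 231 spots marked as outliers, against 54 to 91 on the others. Slide, spot quality and sex cannot be told apart for it. Without knockout kidney a the median difference was -0.55 with 9 of 10 below 0, and on slide 2, the slide that held both genotypes (2 arrays each), it was -0.58 with 0 probes called.

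The difference between the heart effect and the kidney effect was tested directly. No member probe was called, where 0.403% of all 27800 probes were (0.349% higher and 0.054% lower), and 9 of 17 were below 0, against 51.8% of all probes. In limma 1 of the 17 had an unadjusted p under 0.05, as 15.4% of all probes did. Only 10 of the 17 were tested in kidney; the other probes entered through the hearts, and their kidney values are near background. That was the main probe of Cacna1c, at -1.19 (95% interval -2.30 to -0.08; limma adjusted p = 0.295), whose kidney levels were well above background on 2 of the 3 knockout and 1 of the 3 wild type arrays. At probes tested in kidney the intervals were wide, and that of the main Slc8a1 probe ran from -0.39 to 1.85. Without knockout heart c the Ryr2 probe A_52_P102755 passed the threshold (limma adjusted p = 0.048), but it was not well above background on any kidney array or in the 2 knockout hearts left, so a difference of effects was not measured at it.

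**Figure D5:**
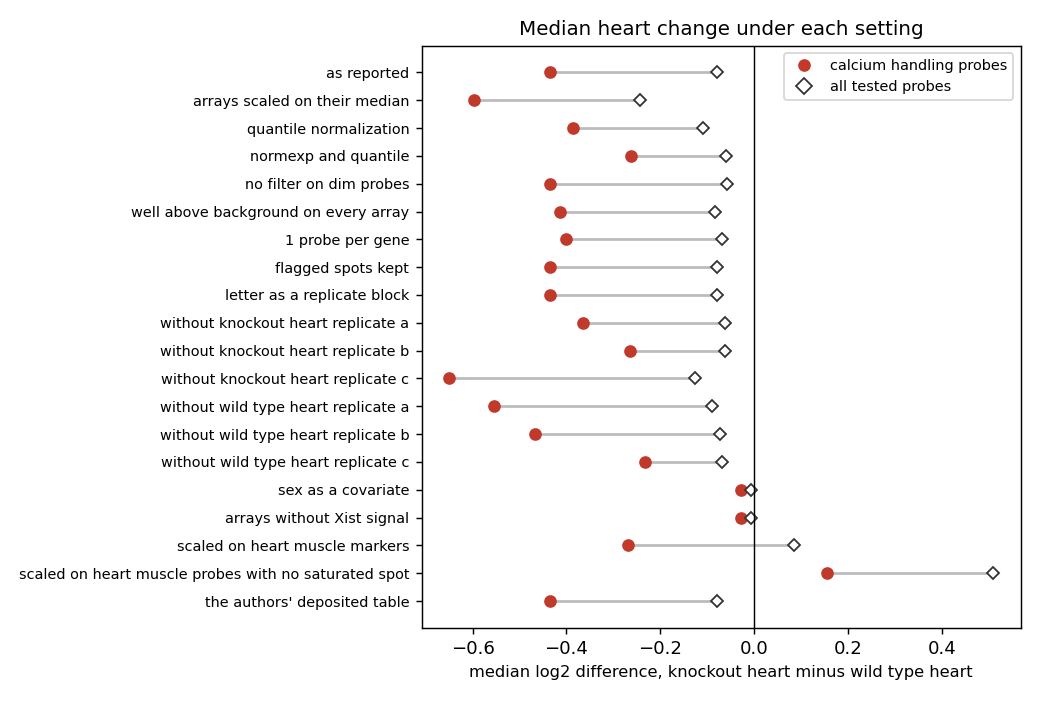
Median knockout minus wild type log2 difference in heart (horizontal axis) over the calcium handling probes (filled circles) and over all tested probes (open diamonds), under each processing setting (vertical axis). The circle lies at -0.43 as reported and at -0.03 in arrays without Xist signal, where knockout heart c is the only knockout heart. It lies at 0.16 when arrays were scaled on unsaturated heart muscle probes, where the diamond lies at 0.51.

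A wider list of 87 calcium handling genes, members left out, set these values beside their pathway. Of them 84 were on the array and 83 were tested in heart at their brightest probe. None was called in limma, where 0.47% of all probes were. An unadjusted p under 0.05 was found for 15, all 15 of them lower in knockout hearts, where 16.4% of all probes had such a p. Of all probes with such a p, the share that was lower was not counted. The fitted difference was below 0 for 63 and above 0 for 20, with a median of -0.23, where 59.2% of all probes were below 0. This did not hold under every setting. In arrays without Xist signal, where knockout heart c is the only knockout heart, 49 were below 0, against 51% of all probes. With arrays scaled on unsaturated heart muscle probes 14 were below 0, with a median of 0.36, against 6.49% of all probes. Without knockout heart c 12 of the 83 were called, 10 of them lower, in the fit that called 11% of all probes. As with the members, knockout hearts a and b had the larger median differences from the wild type mean, -0.30 and -0.39, and knockout heart c had -0.07. In kidney 74 were tested, with 32 below 0 and 42 above 0, where 53.4% of all probes were below 0. In limma 0 were called, against 0.0969% of all probes, and 10 had an unadjusted p under 0.05, as 13.3% of all probes did.

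By role, the release channels and their complex were below 0 in 15 of 17 genes with a median of -0.42. Ryr3, a minor ryanodine receptor, had the lowest difference of that group, -1.28 ± 0.28 (SE, limma adjusted p = 0.146), and Sri, sorcin, the highest, 0.15 ± 0.16. Among surface channels 10 of 14 were below 0, with a median of -0.40: Cacnb1, a beta subunit, differed by -0.99 ± 0.28 and Cacnb3 by 0.36 ± 0.18. Among pumps and small regulators 5 of 7 were below 0. Atp2b3, a plasma membrane pump, differed by -1.69 ± 0.58, and Atp2a3, a SERCA pump of blood and other non-muscle cells, by 0.43 ± 0.21 (SE; limma adjusted p = 0.267 and 0.343).

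Kinases, phosphatases and beta-adrenergic signalling genes were below 0 in 18 of 24, from Hspb6, a small heat shock protein, at -0.76 ± 0.30 to Ppp1r1a, an inhibitor of protein phosphatase 1, at 0.35 ± 0.42. Store buffers were below 0 in 3 of 5, from Srl, sarcalumenin, at -0.30 ± 0.33 to Calr, calreticulin, at 0.26 ± 0.14. Exchangers other than Slc8a1 were below 0 in 3 of 4, with Slc8a3 at -0.53 ± 0.17 and Slc24a3 at 0.68 ± 0.65. Mitochondrial uptake genes were below 0 in 4 of 5, with Micu2 at -0.59 ± 0.18. Store-operated entry genes were below 0 in 5 of 7, with Orai2 at 1.10 ± 0.52. None of these passed the test with all arrays. Without knockout heart c 5 of the genes named here by role were called in limma: Atp2a3 at 0.65, Orai2 at 1.70, Atp2b3 at -2.36, Ryr3 at -1.50 and Cacnb1 at -1.19, in the fit that called 11% of all probes. Slc24a3 was 0.065 without knockout heart a and 1.19 without wild type heart a, and Srl was -0.049 without knockout heart b and -0.59 without knockout heart c.

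The genes whose level over the 6 hearts was most like the members were found by Pearson correlation among 14859 genes. For the median profile of the 8 members they were Hspb2 at 0.998, Got2 at 0.997 and Dsc2 at 0.997. A total of 1695 genes had a correlation above 0.9 with that profile, so a close match over 6 arrays is common. For Cacna1c, the member with the widest range over hearts (1.40), they were Znrd2, Otub1 and Ipo5 at 0.998, 0.996 and 0.993, and for Casq2 (range 1.36) Rxrg, Fam160a2 and Sdr39u1 at 0.999 each.

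RefSeq promoter windows, from 250 bases before to 50 after the start of transcription in build GRCm38.p6, were matched by symbol for 6 of the 8 genes, 8 windows in all. Windows for Atp2a2 and Sln were not used here. The 8 windows are described because the main probes of these genes were higher in heart than in kidney and correlated over the 6 hearts. Such correlation was common, as 1695 of 14859 other genes exceeded 0.9 with the median profile of the members. Their GC content ranged from 36.0% at Pln to 81.3% at 1 of the 3 Cacna1c windows, against a median of 52.7% over 32851 windows. Motifs searched on both strands were GATAA, the core bound by GATA factors, found in 25.4% of all windows; CANNTG, the E-box, found in 72.3%; TATAAA, found in 13.6%; GGGCGG, found in 35.7%; and the MEF2 consensus and the CArG box, found in 3.19% and 1.63%. The motifs may overlap. A match is a description of letters, not a bound site.

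GATAA occurred 2 times at Pln, 2 times at Slc8a1 and 1 time at Hrc, and in none of the other windows. The MEF2 consensus occurred at Casq2 alone, and the CArG box at none of the 8. TATAAA was present at Pln and GGGCGG at Ryr2, Hrc and 1 Cacna1c window, while CANNTG was present in all 8. The 4 windows with a GATAA or MEF2 match are printed 5′ to 3′ in the direction of the gene, with those matches, on either strand, in capitals. They lie at chr10:53337436-53337735 (Pln, plus strand), chr17:81738338-81738637 (Slc8a1, minus strand), chr7:45335019-45335318 (Hrc, plus strand) and chr3:102086165-102086464 (Casq2, plus strand).
Pln: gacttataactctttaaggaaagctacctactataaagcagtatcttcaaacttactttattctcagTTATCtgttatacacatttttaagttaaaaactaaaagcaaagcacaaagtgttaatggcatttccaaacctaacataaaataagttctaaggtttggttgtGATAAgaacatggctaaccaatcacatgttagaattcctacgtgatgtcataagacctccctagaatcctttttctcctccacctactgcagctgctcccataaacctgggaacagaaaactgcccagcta
Slc8a1: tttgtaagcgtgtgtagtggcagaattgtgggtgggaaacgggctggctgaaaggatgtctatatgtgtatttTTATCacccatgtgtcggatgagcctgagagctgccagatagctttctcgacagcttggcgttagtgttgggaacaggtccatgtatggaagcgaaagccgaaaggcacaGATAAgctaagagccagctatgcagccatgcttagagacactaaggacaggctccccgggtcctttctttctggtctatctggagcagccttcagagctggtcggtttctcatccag
Hrc: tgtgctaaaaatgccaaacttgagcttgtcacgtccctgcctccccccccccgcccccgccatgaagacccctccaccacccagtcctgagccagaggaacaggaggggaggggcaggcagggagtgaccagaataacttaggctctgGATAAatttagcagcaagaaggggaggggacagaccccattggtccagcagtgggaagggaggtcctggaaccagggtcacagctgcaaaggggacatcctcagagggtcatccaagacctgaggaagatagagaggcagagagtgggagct
Casq2: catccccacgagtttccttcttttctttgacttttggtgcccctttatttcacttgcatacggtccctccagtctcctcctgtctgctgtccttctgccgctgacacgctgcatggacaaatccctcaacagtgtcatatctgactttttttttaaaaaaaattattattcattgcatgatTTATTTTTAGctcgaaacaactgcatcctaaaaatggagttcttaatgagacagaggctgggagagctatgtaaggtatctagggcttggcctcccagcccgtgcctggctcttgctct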

How the data were processed

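Each deposited scanner file gives an intensity for every spot, which the authors extracted with Agilent Feature Extraction, version 9.5.3.1 per the file headers and 9.1 per the submitters' processing notes. It is background-subtracted and not scaled across arrays, per the file headers. The authors' deposited table is of log2 values, centred probe by probe within each tissue, which was checked on the values: 100% of probes had a median within 0.01 of 0. Its columns correlate at 0.9998 or more with the array that shares letter and tissue and has the other genotype, and at -0.392 to -0.059 with the array of their own name. The scanner labels were kept because Slc29a1 is lower there in knockout arrays.

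Spots marked non-uniform or population outliers were left out, spots of a probe averaged, and log2 processed signals shifted so that each array's 75th percentile was 0. limma 3.58.1 (R 4.3.3) was fitted over all tested probes, per tissue for the knockout effects and over 12 arrays otherwise, with Benjamini-Hochberg adjustment and no covariate. Current names came from an accession (23082 probes), a symbol (6582) or a synonym (3073), and 8437 probes kept the name in the file. On simulated data, a change of 1 log2 unit was called at 24 of 100 probes in heart (26171 probes in the fit) and 9 of 100 in kidney (25645). One of 2 units was called at 73 and 55, and 6 and 1 unchanged probes were called. The simulated noise was drawn independently for each probe and array, without the differences between arrays that the real probes share. These rates may therefore not hold for the real arrays.

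The members, the lists and the rule for named genes (all members; the largest rise and fall of each role group; the 3 genes most like a profile) were chosen with earlier results of these data known, and some genes the rule names are not reported here. Deviations of same-letter hearts correlated at 0.36, 0.15 and 0.25, and those of same-letter kidneys at 0.15, 0.02 and -0.18. Letters are not stated to pair the arrays, so the reported fits were unpaired. From these data alone, the letter was used as a replicate block only in an alternative. Xist is present in knockout heart b and not in knockout kidney b, so a letter does not mark 1 mouse in both tissues. The closest pair of arrays correlated at 0.993, and none was a copy.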

Additional observations from a re-analysis of the deposited data

How the results depend on the processing

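Results were recomputed with other scalings (array median, quantile, normexp with quantile), other filters on dim probes and 1 probe per gene. Other settings kept outlier spots, added slide or sex terms, took the letter as a replicate block or left out each array. The authors' deposited table was also used, with each column taken as the array it follows. It repeats the same measurements, with a median heart change of -0.434 as in the reported fit, and is not an independent check. Scalings on heart muscle markers were also run, that on 4 unsaturated probes chosen after seeing the data. The replicate block left 0 member probes called in heart and in kidney, with medians of -0.43 and -0.17, and 15 called in wild type heart against kidney. The median heart change was -0.028 with sex as a covariate and in arrays without Xist signal. Both settings are the same comparison, of knockout heart c alone with the wild type hearts, since Xist signal marks knockout hearts a and b only. On unsaturated heart muscle probes the median heart change was 0.16. The 8 main probes then read Atp2a2 0.37, Pln 0.13, Sln 0.16, Ryr2 0.36, Casq2 0.093, Cacna1c 0.056, Slc8a1 0.22 and Hrc 0.28. With sex as a covariate or without Xist arrays, Ryr2 was 0.34, Casq2 0.12, Slc8a1 0.20 and Hrc 0.13. With normexp, Atp2a2 in heart was 0.02 and Casq2 in kidney 0.048. Pln in kidney was -0.15 with slide as a block or within the shared slide, and -0.31 with the sex term or without Xist arrays. The settings of each pair are the same comparison, and the second pair equals leaving out knockout kidney a. Of wild type heart against kidney, 8 probes were called with probes above background on every array and 8 with 1 probe per gene, since fewer were tested. The cause of the other changes was not tested.

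Leaving out 1 array gave 0 to 1 called in heart, 0 in kidney, 15 to 16 between tissues and 0 to 1 for the difference of effects. The medians ranged from -0.65 to -0.23 in heart and from -0.55 to -0.025 in kidney, and single genes in kidney from -0.31 to 0.25 (Pln) and -0.29 to 0.22 (Casq2). In the wider list Ppp1r1a ranged from -0.11 to 0.68. Over all alternatives, the number of all probes called ran from 16 (normexp) to 2885 (without knockout heart c) in heart, against 123 as reported, from 1 to 120 in kidney, against 25, and from 14 to 1640 for the difference of effects, against 112. Slide could not be fitted as a fixed block in heart, where it equals genotype, nor between tissues, and the authors' table, centred per tissue, gave no tissue comparison. Saturation limits Atp2a2 and Sln in hearts, and dim signal limits 7 of the 17 heart probes in kidney.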

Other observations

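Pvalb, parvalbumin, a calcium buffer of fast skeletal muscle fibres, had -0.31 in wild type heart a and -6.59 to -5.77 in the other 5 hearts. Ryr1, the ryanodine receptor of skeletal muscle, had -1.85 in that heart and -4.36 to -3.26 in the others. The skeletal muscle marker median was also highest there, at 1.93. Atp2a1, the skeletal muscle SERCA pump, did not follow: it had 3.76, 3.34 and 4.14 in knockout hearts and 3.80, 4.34 and 4.66 in wild type hearts, and wild type heart a was not the highest.

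Orai2, a store-operated channel subunit, had -1.15 and -0.47 in knockout hearts a and b and -2.63 in knockout heart c, against -2.47, -2.28 and -2.79 in wild type hearts. Atp2a3 had -0.03 and 0.18 in knockout hearts a and b, and -0.59 in knockout heart c, against -0.61 to -0.53 in wild type hearts. These 2 knockout hearts are those in which all 8 thymus and lymphocyte markers were well above background; the part of such cells in these levels was not tested.

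In kidney, the plasma membrane pump Atp2b2 had the lowest adjusted p of the wider list. It had -2.04, -2.67 and -3.30 in knockout kidneys and -4.93, -5.02 and -4.28 in wild type kidneys, a difference of 2.07 ± 0.36 (SE, limma adjusted p = 0.113) that did not pass the test.

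A probe outside the naming rule, A_52_P313285, carries only a transcript identifier but the same NaCa3 description as A_52_P313284, with which it shares 52 of 60 bases. It was lower in wild type heart than in wild type kidney by -0.92 ± 0.41 (SE, limma adjusted p = 0.0768), which did not pass the test, and it had -6.04, -4.51 and -5.93 in wild type hearts against -4.30, -5.11 and -4.31 in wild type kidneys.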
